A study of Mus musculus with 26 samples.

Results

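The genes described here were the segments of the 7 antigen receptor loci of the mouse, that is the immunoglobulin heavy, kappa and lambda loci and the T cell receptor alpha, beta, gamma and delta loci. They were chosen by the gene type given in the deposited tables (immunoglobulin or T cell receptor gene, pseudogenes left out) together with a minimum of 10 counts summed over all samples. This gave 332 members of 494 such genes, within 61461 genes in all. Of the 162 genes left out for low counts, 74 had no count in any sample. By segment type the members were 272 variable (V), 4 diversity (D), 36 joining (J) and 20 constant (C) genes, and by locus 106 heavy, 100 kappa, 10 lambda, 61 alpha, 35 beta, 10 gamma and 7 delta genes, with 3 V genes that carry no locus in their name. Just inside the minimum, 8 genes had a sum of 10 counts, among them Ighv1-56, Tcrg-C3 and Trav12-1, and 3 had 11. Just outside it, 4 genes had 9 counts and 7 had 8.

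RNA was sequenced from 3 populations of sorted cells of naïve female WT and ACKR2-/- mice, ACKR2 being an atypical chemokine receptor that takes up inflammatory CC chemokines without signalling. There were 4 WT and 4 ACKR2-/- samples of bone marrow monocytes, 4 and 4 of small peritoneal macrophages (SPMs), and 5 and 5 of lung interstitial macrophages negative for MHC class II. Each monocyte and SPM sample pooled cells of 5 mice, while how many mice stand behind a lung sample is unknown here. The mice were 8 to 10 weeks old unless stated otherwise, WT mice were purchased C57BL/6J, and ACKR2-/- mice came from a separate homozygous colony and were not littermates. Genotype and source of the mice therefore cannot be told apart. Each sort took CD45+ cells. The monocyte gate was also negative for Ly6G, SiglecF and F4/80 and positive for CD11b and Ly6C, and no T cell marker is named in any gate. The tables held between 12781144 and 35400034 counts per sample, of which the members took between 0.0598% and 0.642%.

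An antigen receptor gene is assembled in developing lymphocytes by joining 1 V, in some loci 1 D, and 1 J segment, after which the transcript is spliced to a constant gene. Heavy chains pair with a kappa or a lambda light chain to form the B cell receptor or antibody, and the constant gene in use sets the isotype. Alpha chains pair with beta chains and gamma chains with delta chains to form the T cell receptor, which reaches the cell surface only with the CD3 chains. Constant genes can also be transcribed without a joined V segment, and rearrangement is a known property of lymphocytes, not of monocytes or macrophages. In bulk samples, fewer cells of a type and less RNA per cell cannot be told apart.

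Some libraries stood apart. In the lung, WT replicate 3 had a summed MHC class II level (H2-Ab1, H2-Aa, H2-Eb1 and Cd74) of 96644 CPM (counts per 1000000 counts of the TMM-scaled library), while the other WT samples had at most 9372 and the ACKR2-/- samples between 3744 and 8405 CPM, although the gate was negative for MHC class II. The same library had 2386 CPM over the B cell markers against 183 to 676 CPM in the ACKR2-/- samples. Ackr2 itself had no count in any ACKR2-/- SPM sample and 29 counts in the WT SPM samples, and in monocytes it had 2 counts in WT and none in ACKR2-/- samples. In the lung Ackr2 was at 22.1, 17.7, 7.75, 14.6 and 0 CPM in WT replicates 1 to 5 and between 0.282 and 1.64 CPM in ACKR2-/- samples. The library labelled WT replicate 5 thus lay below the other WT samples and also below every ACKR2-/- sample. Lung results that rest on WT replicate 3 or 5 are also given without it. The lung epithelium markers summed to 230 CPM in ACKR2-/- replicate 4 and 367 CPM in WT replicate 5, where the other 8 lung samples had 5673 to 16643 CPM. Among the SPMs, WT replicate 1 had 4992 CPM over the monocyte markers and 182 CPM over the B cell markers, while the other 7 samples had 1295 to 1920 and 364 to 577 CPM.

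The variable exons of 2 heavy and 2 kappa segments are shown because Ighv11-2 with Igkv14-126, and Ighv12-3 with Igkv4-91, are textbook pairs of phosphatidylcholine binding B-1 cells of the peritoneal cavity, and because Ighv11-2 and Igkv14-126 led the counts of most SPM samples. The sequences are the annotated exons of GENCODE M21 (GRCm38), at most the last 300 bases, written 5′ to 3′ on the strand of the gene. Capitals mark TANTNNTGN, the codons around the conserved tyrosine and cysteine near the end of the segment, which 244 of the 272 V members (89.7%) held in their last 60 coding bases. Ighv11-2 lies at chr12:114048241-114048540 on the minus strand, Igkv14-126 at chr6:67896345-67896642 on the plus strand, Ighv12-3 at chr12:114366521-114366820 on the minus strand and Igkv4-91 at chr6:68768555-68768854 on the minus strand.
Ighv11-2: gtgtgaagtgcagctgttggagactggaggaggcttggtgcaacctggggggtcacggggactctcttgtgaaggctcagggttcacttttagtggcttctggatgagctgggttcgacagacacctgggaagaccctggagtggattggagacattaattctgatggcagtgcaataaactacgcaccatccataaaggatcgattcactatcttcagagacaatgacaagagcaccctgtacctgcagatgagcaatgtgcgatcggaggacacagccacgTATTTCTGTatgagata
Igkv14-126: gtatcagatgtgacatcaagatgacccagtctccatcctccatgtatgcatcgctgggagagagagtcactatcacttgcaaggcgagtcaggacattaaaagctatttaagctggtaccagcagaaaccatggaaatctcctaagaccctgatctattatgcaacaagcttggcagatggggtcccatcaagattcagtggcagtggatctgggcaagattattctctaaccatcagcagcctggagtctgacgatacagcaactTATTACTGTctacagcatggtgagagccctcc
Ighv12-3: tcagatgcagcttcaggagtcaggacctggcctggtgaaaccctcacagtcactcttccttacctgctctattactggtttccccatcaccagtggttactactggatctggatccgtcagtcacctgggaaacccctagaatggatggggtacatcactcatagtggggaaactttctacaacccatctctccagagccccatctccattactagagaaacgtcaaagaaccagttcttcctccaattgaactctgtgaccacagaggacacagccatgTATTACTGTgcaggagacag
Igkv4-91: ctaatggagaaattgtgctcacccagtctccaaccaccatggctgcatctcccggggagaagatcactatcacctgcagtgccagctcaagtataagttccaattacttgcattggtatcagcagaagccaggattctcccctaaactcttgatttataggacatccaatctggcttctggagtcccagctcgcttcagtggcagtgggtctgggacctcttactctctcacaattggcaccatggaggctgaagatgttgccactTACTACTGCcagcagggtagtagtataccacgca

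The exons of Trav7-4, Trav7n-4 and Trav7d-4 are shown because these near copies of 1 alpha V segment took their counts from different genotypes. All 3 are on the plus strand, at chr14:53461447-53461738, chr14:53091584-53091875 and chr14:52770101-52770392, and capitals mark the 6 positions at which the 3 sequences were not all alike. Trav7d-4 and Trav7-4 differed at 1 of 292 bases, so the assignment of reads between them was uncertain.
Trav7-4: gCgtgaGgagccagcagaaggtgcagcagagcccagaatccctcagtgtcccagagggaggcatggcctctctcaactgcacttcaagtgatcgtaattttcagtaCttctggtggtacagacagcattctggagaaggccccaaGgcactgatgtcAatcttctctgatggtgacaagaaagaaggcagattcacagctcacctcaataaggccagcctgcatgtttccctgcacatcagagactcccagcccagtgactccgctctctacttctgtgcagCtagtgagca
Trav7n-4: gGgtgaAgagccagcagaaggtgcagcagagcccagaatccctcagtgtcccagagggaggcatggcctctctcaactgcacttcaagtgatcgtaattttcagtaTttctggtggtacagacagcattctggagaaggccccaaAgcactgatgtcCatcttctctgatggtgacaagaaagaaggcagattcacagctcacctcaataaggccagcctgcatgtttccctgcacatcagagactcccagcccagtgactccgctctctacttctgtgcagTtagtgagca
Trav7d-4: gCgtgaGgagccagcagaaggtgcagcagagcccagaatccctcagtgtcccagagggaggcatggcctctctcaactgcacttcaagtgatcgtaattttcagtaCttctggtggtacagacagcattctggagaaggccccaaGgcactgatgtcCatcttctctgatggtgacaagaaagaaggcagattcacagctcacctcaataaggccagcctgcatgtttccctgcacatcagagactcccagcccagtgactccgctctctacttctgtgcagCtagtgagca

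Stretches of 150 bases of the lambda constant genes Iglc2 (chr16:19198703-19198852) and Iglc3 (chr16:19065532-19065681), both on the minus strand, are shown because the counts of the pair shifted between groups. Capitals mark the 7 bases of the stretch at which they differed. Over the whole coding sequence the pair was 96.2% identical.
Iglc2: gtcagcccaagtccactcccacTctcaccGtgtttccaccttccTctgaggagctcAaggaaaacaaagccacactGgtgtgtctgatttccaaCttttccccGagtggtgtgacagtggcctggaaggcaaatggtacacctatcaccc
Iglc3: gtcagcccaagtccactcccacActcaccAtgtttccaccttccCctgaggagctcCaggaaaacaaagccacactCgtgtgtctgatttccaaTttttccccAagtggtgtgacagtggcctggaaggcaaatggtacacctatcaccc

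In bone marrow monocytes, the summed levels of 6 of the 7 loci were higher in every ACKR2-/- sample than in every WT sample. The T cell receptor loci stood furthest apart. Over all of their members, the mean was 3.36 ± 0.692 CPM in WT and 55.7 ± 15.7 CPM in ACKR2-/- monocytes (SD, n = 4 each), a ratio of the means of 16.6. Over all immunoglobulin members it was 767 ± 103 and 1460 ± 177 CPM, a ratio of 1.90. A summed level gets no p-value here, because the members were chosen with results of these data known.

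The beta locus was at 1.95, 2.36, 1.22 and 1.90 CPM in WT replicates 1 to 4 and at 32.5, 22.6, 36.6 and 43.3 CPM in ACKR2-/- replicates 1 to 4. The alpha locus was at 0.782, 1.31, 1.06 and 0.783 CPM in WT and at 13.1, 8.99, 17.7 and 20.7 CPM in ACKR2-/- monocytes. In both loci ACKR2-/- replicate 2 was the lowest of its group, and it still lay above every WT sample. The gamma locus was at 0.415 ± 0.325 CPM in WT and 5.02 ± 1.72 CPM in ACKR2-/- samples, and the delta locus at 0.102 ± 0.0492 and 1.75 ± 0.434 CPM, with no overlap of the genotypes in either.

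The kappa locus was at 185, 39.1, 47.0 and 90.6 CPM in WT and at 340, 492, 295 and 590 CPM in ACKR2-/- monocytes. The heavy locus was at 723, 637, 631 and 629 CPM in WT and at 923, 752, 1152 and 1098 CPM in ACKR2-/- monocytes. These loci did not overlap either, but the ratio of the means was 4.75 for kappa and 1.498 for heavy. The lambda locus overlapped between the genotypes, at 4.62 to 55.5 CPM in WT and 12.2 to 122 CPM in ACKR2-/- monocytes.

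**Figure D1:**
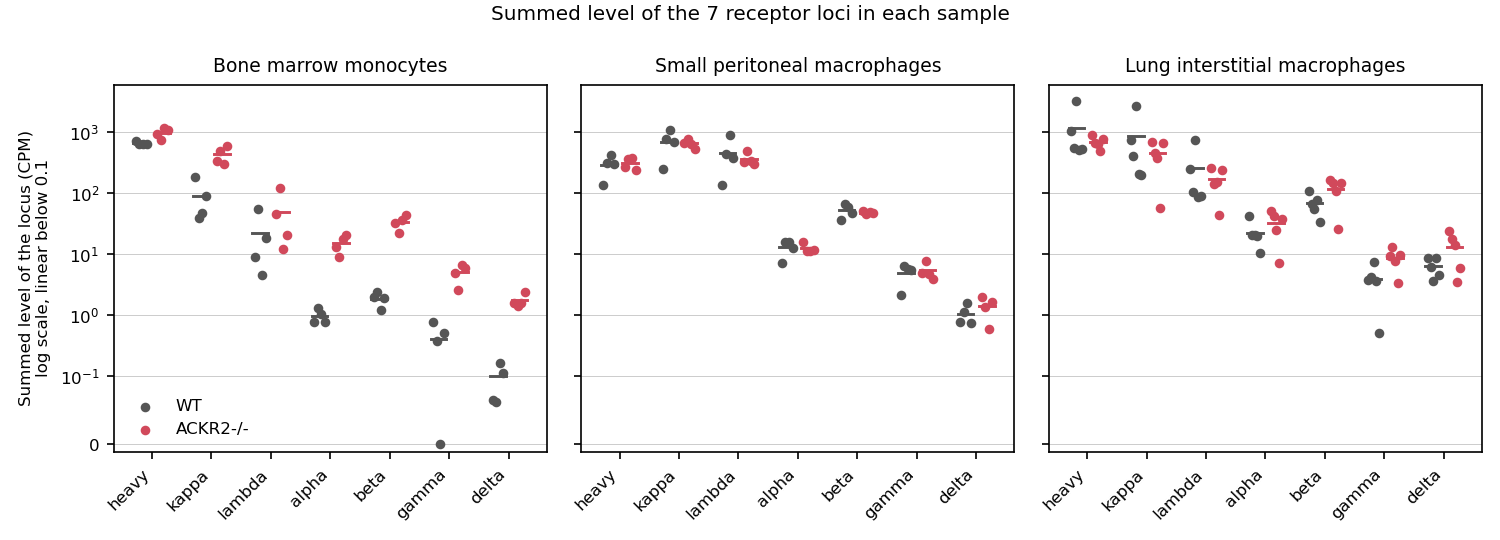
Summed level of each locus in CPM (log axis, linear below 0.1) in every sample of the 3 cell types, with WT in grey and ACKR2-/- in red and a bar at each group mean. In monocytes every locus but lambda is higher in all ACKR2-/- samples, whereas in SPMs and lung macrophages the genotypes overlap in all 7 loci, and WT replicate 3 lies above all other lung samples in the heavy (3178 CPM), kappa (2709 CPM) and lambda (738 CPM) loci.

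Of the 332 members, 143 had 10 or more counts in the monocyte table. Of these, 37 (25.9%) were higher in every ACKR2-/- than in every WT sample, where the share over all genes was 4.83%. None was lower in every ACKR2-/- sample, where the share over all genes was 4.24%. Members that reached 10 counts only through the ACKR2-/- samples could not be lower there, so these shares support no direction.

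A count model was fitted to the whole monocyte table (edgeR quasi-likelihood test, called at an adjusted p under 0.05 with an absolute log2 fold change over 0.5). It called 0.913% of 13246 genes higher and 0.355% lower in ACKR2-/- monocytes. The filter on low counts let 30 members through, of which 15 were called higher and 0 lower. DESeq2 also called 15 higher and 0 lower, and at an unadjusted p under 0.05 there were 21 higher and 0 lower. Of the 30, 14 reached the filter's level in all ACKR2-/- samples but not in all WT samples, and of the 15 called only 3 reached it in all WT samples. Members that passed through the higher group had to differ, so neither the count nor the median log2 fold change of 3.05, beside 0.004 over all genes tested, supports a direction.

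The 15 called members were 8 constant genes and 7 V segments, and they came from every locus. Called over tested members were 3 of 9 for heavy, 4 of 7 for kappa, 2 of 6 for lambda, 1 of 1 for alpha, 3 of 4 for beta, 1 of 1 for gamma and 1 of 1 for delta. Over all genes tested, 0.913% were called higher. Of the 15, 12 did not reach the filter's level in all WT samples, so the split by locus supports no direction either.

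**Figure D2:**
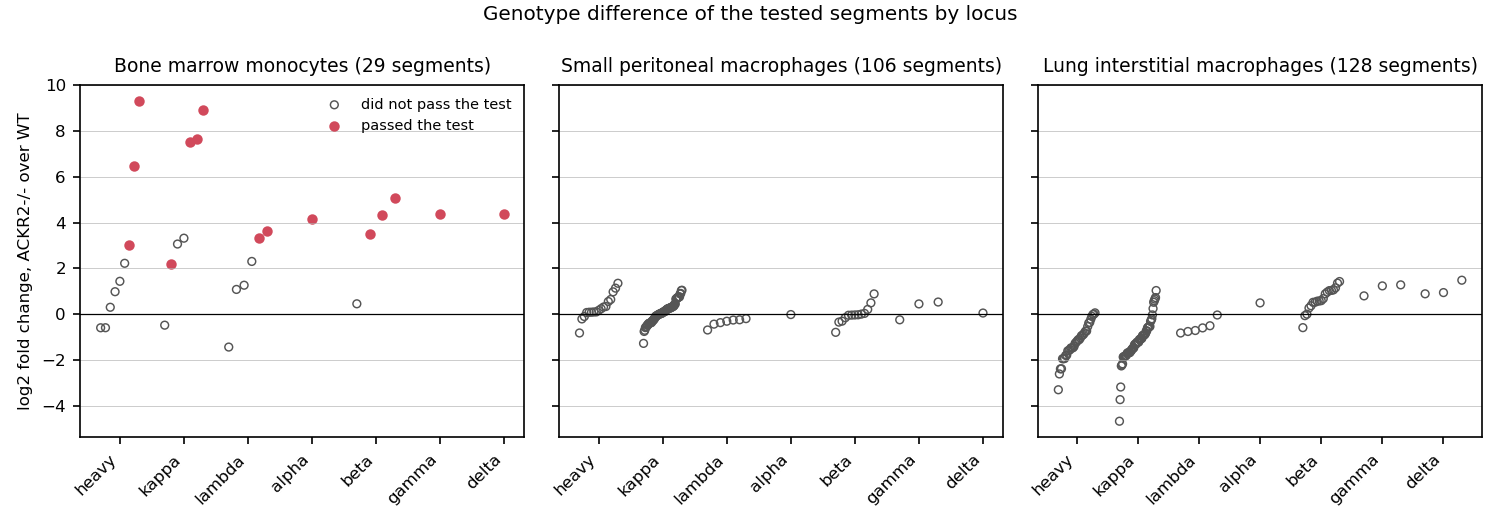
Log2 fold change of ACKR2-/- over WT for the tested members with a locus in their name, in each cell type, where each point is a gene and filled points passed the test. The monocyte panel holds all 15 filled points, from 2.21 for Igkc to 9.33 for Ighv11-2, and the SPM and lung panels hold none.

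In ACKR2-/- monocytes the constant genes of the T cell receptor carried most of the reads of the alpha and beta loci, since V segments took 12.03% to 19.3% and 13.2% to 21.6% of them. Trbc2, a constant gene of the beta chain, was at 0.847, 0.373, 0.501 and 0.392 CPM in WT and at 17.3, 11.2, 18.8 and 23.4 CPM in ACKR2-/- monocytes. Its log2 fold change was 5.06 ± 0.32 (SE; edgeR adjusted p = 9.9e-06). Trbc1, the other beta constant gene, was at 0.130, 0.746, 0.389 and 0.559 CPM in WT and at 10.1, 6.83, 9.47 and 11.2 CPM in ACKR2-/- monocytes. In neither gene did the genotypes overlap. The log2 fold change of Trbc1 was 4.33 ± 0.36 (edgeR adjusted p = 6.2e-05). The pair was 95.6% identical over 518 coding bases, with an identical run of 259 bases, so the split of reads between them was uncertain. Trac, the constant gene of the alpha chain, was at 0.391, 0.995, 0.723 and 0.559 CPM in WT and at 9.57, 7.46, 13.9 and 16.8 CPM in ACKR2-/- monocytes. The log2 fold change of Trac was 4.15 ± 0.34 (edgeR adjusted p = 6.2e-05).

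Trdc, the constant gene of the delta chain, had only 4 counts in all WT samples and 102 counts in the ACKR2-/- samples. Its levels were 0.0651, 0.0622, 0.0556 and 0.0559 CPM in WT and 1.29, 1.02, 1.37 and 1.81 CPM in ACKR2-/- monocytes. The log2 fold change was 4.37 ± 0.46 (edgeR adjusted p = 0.000546). Tcrg-C2, a constant gene of the gamma chain, was at 0.130, 0.124, 0 and 0.168 CPM in WT and at 2.10, 1.65, 2.89 and 2.55 CPM in ACKR2-/- monocytes (log2 fold change 4.37 ± 0.52, edgeR adjusted p = 0.00118). Tcrg-C4 did not pass the filter. It was at 0.261, 0, 0 and 0 CPM in WT and between 0.455 and 2.02 CPM in ACKR2-/- samples, and the groups did not overlap (two-sided exact permutation p = 0.0286, the smallest that 4 against 4 samples allow). Tcrg-C1 and Tcrg-C2 were 94.6% identical, so their counts may be split. Trdc took 8.93% to 12.1% of the counts of Trac and Trdc in ACKR2-/- samples, and with 1 count in each WT sample its share there was not compared.

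Igha, the heavy chain constant gene of IgA, was at 12.6, 23.2, 12.6 and 19.0 CPM in WT and at 148, 50.4, 142 and 211 CPM in ACKR2-/- monocytes. Every ACKR2-/- sample was above every WT sample, and replicate 2 was again the lowest. The log2 fold change was 3.03 ± 0.37 (edgeR adjusted p = 0.00143). Ighm, the constant gene of IgM, was by far the most counted heavy chain gene, at 689, 596, 607 and 593 CPM in WT and at 694, 650, 967 and 750 CPM in ACKR2-/- monocytes. These values overlapped, and the log2 fold change of Ighm was 0.30 ± 0.15 (edgeR adjusted p = 0.336). Ighd, the constant gene of IgD, had a log2 fold change of 1.44 ± 0.40 and did not pass the test (edgeR adjusted p = 0.107), although its 0.326 to 0.615 CPM in WT lay below its 0.968 to 1.94 CPM in ACKR2-/- samples.

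The 4 IgG genes were nearly absent from WT monocytes and uneven among ACKR2-/- samples. Ighg3 was at 0.0538, 6.94, 0 and 33.4 CPM and Ighg2b at 8.12, 0.569, 0.263 and 24.6 CPM in ACKR2-/- replicates 1 to 4. Ighg1 was at 7.15, 1.54, 0 and 0 CPM there. Ighg2c had no count in WT monocytes and 1.18, 1.25, 0 and 6.48 CPM in ACKR2-/- monocytes, a mean at least 50.0-fold higher than the level of 3 counts over the WT group, or at least 18.2-fold without replicate 4. No IgG gene passed the filter, and replicate 4 was the highest for 3 of the 4 genes.

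As a share of all heavy chain constant counts, Igha took 1.79%, 3.75%, 2.03% and 3.09% in WT and 17.2%, 7.08%, 12.8% and 20.5% in ACKR2-/- monocytes. The share of Ighm was 96.2% to 98.2% in WT and 73.1% to 91.3% in ACKR2-/- samples, with no overlap for either gene. The share of heavy chain counts that lay on V segments was also higher, 2.24% ± 0.50 in WT and 5.23% ± 1.42 in ACKR2-/- monocytes.

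**Figure D3:**
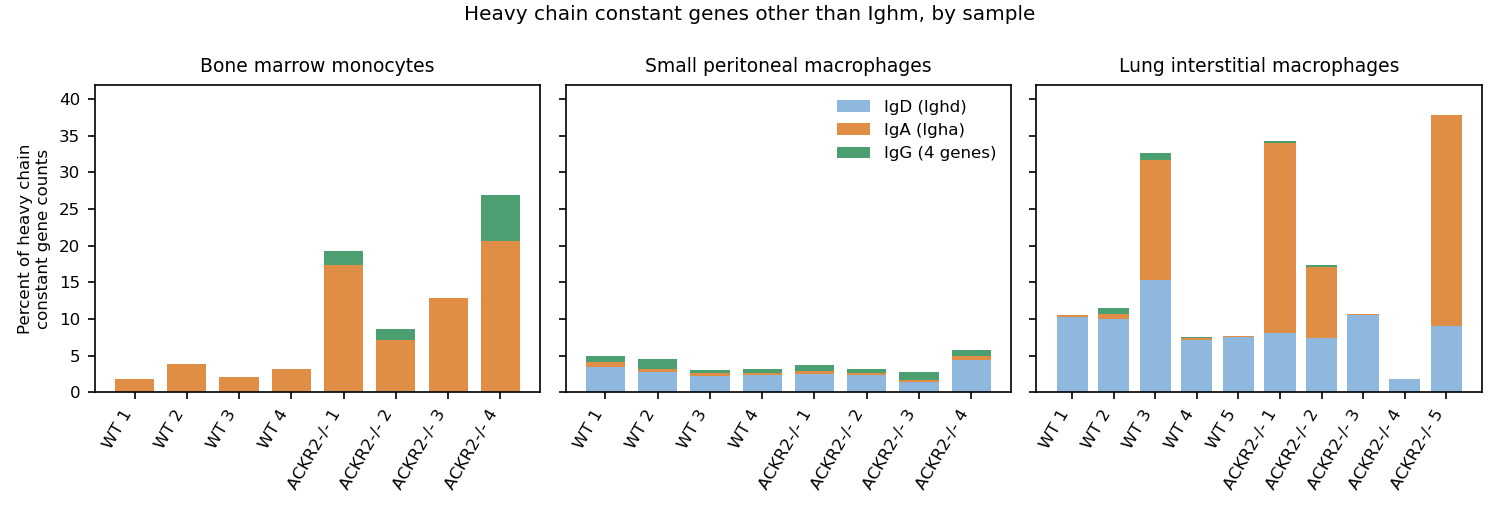
Percent of the heavy chain constant counts on Ighd, Igha and the 4 IgG genes in each sample, with Ighm making up the rest of each bar to 100. The Igha part is larger in every ACKR2-/- monocyte sample (7.08% to 20.5%) than in WT (1.79% to 3.75%), stays under 1% in all SPM samples, and in the lung is 16.5% in WT replicate 3 and 25.8%, 9.70% and 28.7% in ACKR2-/- replicates 1, 2 and 5.

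Igkc, the constant gene of kappa, was at 127, 27.0, 33.2 and 64.4 CPM in WT and at 233, 327, 199 and 405 CPM in ACKR2-/- monocytes. The log2 fold change was 2.21 ± 0.43 (edgeR adjusted p = 0.0323), and this call was lost in 6 of 16 other settings, which were a robust fit and the fits without WT replicates 2, 3 or 4 and without ACKR2-/- replicates 2 or 4. Per kb of gene length, Ighm stood at 3.88 ± 2.18 times the level of Igkc in WT and at 0.823 ± 0.390 times in ACKR2-/- monocytes, again with no overlap. Iglc3, a lambda constant gene, was at 1.76, 1.55, 1.22 and 2.07 CPM in WT and at 20.4, 50.7, 4.37 and 6.75 CPM in ACKR2-/- monocytes (log2 fold change 3.63 ± 0.68, edgeR adjusted p = 0.0280). This call was lost without each of the WT replicates in turn. Its near copy Iglc2 did not pass (log2 fold change 1.26 ± 0.51, edgeR adjusted p = 0.240). Iglc1, at 1.43, 29.6, 0.556 and 6.60 CPM in WT, had a log2 fold change of -1.44 ± 0.91 (edgeR adjusted p = 0.435), which was 0.30 without WT replicate 2. Of the lambda constant counts, Iglc3 took 4.75% to 43.1% in WT and 53.6% to 77.3% in ACKR2-/- samples.

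**Figure D4:**
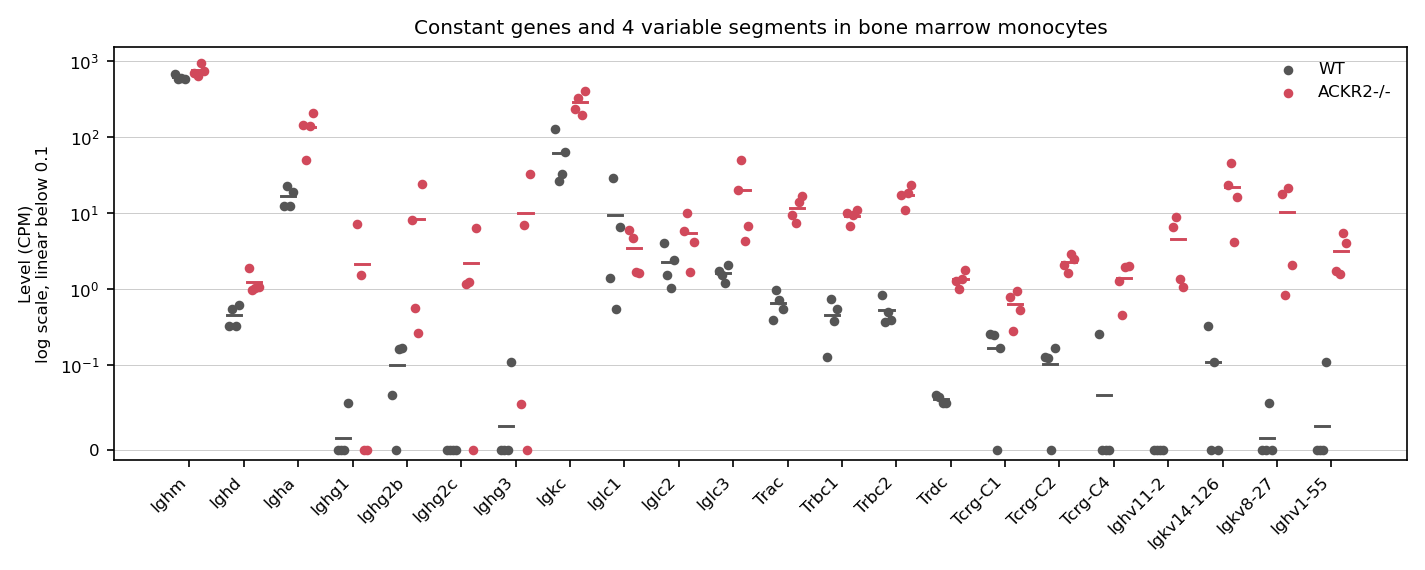
Level in CPM (log axis, linear below 0.1) of the constant genes and of 4 V segments in each monocyte sample, with WT in grey and ACKR2-/- in red and a bar at each group mean. Trac, Trbc1, Trbc2, Trdc and Igha are separated between the genotypes in all samples. Ighm overlaps, with the lowest ACKR2-/- sample inside the WT range (593 to 689 CPM) and the other ACKR2-/- samples above it.

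Igkv14-126 was the kappa V segment with the most counts over the ACKR2-/- monocytes that passed the test. It had 5, 0, 2 and 0 counts in WT and 437, 805, 79 and 306 counts in ACKR2-/- replicates 1 to 4, with a log2 fold change of 7.65 ± 0.90 (edgeR adjusted p = 0.00118). Ighv11-2 had no count in WT monocytes and 125, 160, 26 and 20 counts in ACKR2-/- monocytes, a mean at least 102-fold higher than the level of 3 counts over the WT group (edgeR adjusted p = 0.0201). This call was lost in 4 of 16 other settings, a robust fit and the fits without WT replicates 1, 2 or 4 (highest edgeR adjusted p = 0.0675). These are the segments of the first textbook pair shown above. Neither segment showed an overlap, and in both ACKR2-/- replicate 2 was the highest. Igkv8-27 had 1 count in WT samples and 332, 15, 410 and 39 counts in ACKR2-/- samples, a ratio of 724 with a 95% exact binomial counting interval of 130 to 28600 (edgeR adjusted p = 0.0109).

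Ighv1-55 had 0, 0, 0 and 2 counts in WT and 32, 28, 104 and 77 counts in ACKR2-/- monocytes (ratio 110, counting interval 30.0 to 910, edgeR adjusted p = 0.00143). Igkv14-111 had 1 count in WT and 19, 13, 203 and 65 counts in ACKR2-/- monocytes (ratio 273, counting interval 48.6 to 10800, edgeR adjusted p = 0.0125). The remaining called segments were Iglv3 (log2 fold change 3.34 ± 0.68, edgeR adjusted p = 0.0387) and Trbv12-2 (3.51 ± 0.74, edgeR adjusted p = 0.0441). The calls of Igkv8-27, Igkv14-111, Iglv3 and Trbv12-2 were lost without each of the WT replicates in turn, and that of Trbv12-2 also without ACKR2-/- replicates 1 or 4 and with a replicate block (7 of 15 other settings). The intervals cover counting error only, since amplified reads without molecular identifiers are not independent molecules.

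More V segments were detected at 3 or more counts in ACKR2-/- monocytes, with 62 to 82 of 272 in a sample against 22 to 26 in WT. The total counts were 15450670 to 19218213 per monocyte sample. For the heavy locus it was 19 to 31 against 9 to 16, for kappa 17 to 29 against 4 to 10, and for beta 10 to 14 against 1 or 2 segments. In WT monocytes 1 segment took a large share of the kappa V counts of a sample. Igkv4-68 took 54.2% in replicate 1, with 480 counts, Igkv15-103 took 71.3% in replicate 2 and 44.1% in replicate 3, and Igkv6-32 took 46.3% in replicate 4. In ACKR2-/- monocytes the leading kappa segment was Igkv14-126 in replicates 1 and 2 (22.2% and 27.7%), Igkv8-27 in replicate 3 (22.7%) and Igkv6-15 in replicate 4 (34.1%). The leading heavy V segment was a different one in each of the 8 monocyte samples. Trbv1 took between 58.8% and 93.3% of the beta V counts of the WT samples, which were only 6 to 20 counts each.

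Per kb of gene length, the most abundant segments of the monocyte samples were Ighj1 (28.4 ± 12.1 CPM per kb in WT, 56.0 ± 20.1 in ACKR2-/-) and Ighv7-1 (12.8 ± 11.2 and 8.45 ± 3.98) in the heavy locus. In the light chain loci Igkv14-126 was at 0.305 ± 0.429 and 62.7 ± 48.9, and Igkv6-15 at 0.0870 ± 0.101 and 48.4 ± 89.1 CPM per kb, the latter resting on replicate 4. Iglv1, a lambda V segment, was at 19.6 ± 25.1 and 41.4 ± 56.0 CPM per kb. Ighj1 did not pass the test, with a log2 fold change of 0.98 ± 0.38 (edgeR adjusted p = 0.223).

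The signalling chains of the T cell receptor were higher in ACKR2-/- monocytes, as its constant genes were. All 4 tested signalling chains were called higher, with log2 fold changes of 4.38 ± 0.22 for Cd3d, 4.53 ± 0.41 for Cd3g, 5.38 ± 0.61 for Cd3e and 3.11 ± 0.39 for Cd247 (edgeR adjusted p between 3.6e-06 and 0.00182). Cd3d was at 0.521, 0.871, 0.946 and 0.615 CPM in WT and at 15.7, 13.8, 14.9 and 17.7 CPM in ACKR2-/- monocytes. Summed, the signalling chains were at 1.28 to 2.24 CPM in WT and 29.0 to 43.6 CPM in ACKR2-/- samples. Of the 14 T cell markers, 11 were tested and 10 called higher, among them Cd2, Lck, Cd8a and Cd8b1. Over all genes tested, 0.913% were called higher. Genes this low in WT samples could enter the test through the ACKR2-/- samples and then hardly be called lower. The counts of called chains and markers therefore support no direction. The summed T cell markers ranged from 4.01 to 6.32 CPM in WT and from 61.6 to 108 CPM in ACKR2-/- samples. Cd4 did not pass the test (log2 fold change 3.42 ± 0.78, edgeR adjusted p = 0.0595). The markers of gamma delta T cells overlapped, at 3.23 to 8.33 CPM in WT and 1.16 to 5.32 CPM in ACKR2-/- monocytes. Of these 5 genes, 2 had no count in any monocyte sample. Sox13, the only one tested, had a log2 fold change of -1.16 ± 0.48 (edgeR adjusted p = 0.255). This list therefore cannot show whether such markers followed the gamma and delta loci. The part of these lists in the result was not tested.

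Markers of other cell types moved too. The natural killer cell markers ranged from 0.808 to 1.96 CPM in WT and from 6.77 to 16.2 CPM in ACKR2-/- monocytes, with both tested genes, Klre1 and Klrd1, called higher. Both could likewise enter the test through the ACKR2-/- samples, so that count supports no direction. The plasmacytoid dendritic cell markers ranged from 39.1 to 48.3 and from 52.5 to 154 CPM, with Siglech the 1 called gene of 5 tested. The monocyte markers overlapped, at 7025 to 7664 CPM in WT and 4132 to 8365 CPM in ACKR2-/- samples. The part of these markers in the result was not tested.

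The partner genes of the B cell receptor did not all follow the immunoglobulin loci. Jchain, which joins IgA and IgM into multimers, was at 25.7, 13.7, 12.2 and 18.9 CPM in WT and at 94.1, 101, 69.5 and 121 CPM in ACKR2-/- monocytes (log2 fold change 2.45 ± 0.24, edgeR adjusted p = 0.000276). Mzb1, a chaperone of antibody secretion, was also called higher (log2 fold change 2.06 ± 0.44, edgeR adjusted p = 0.0489), a call lost in 9 of 16 other settings. The other 3 tested plasma cell partners, all transcription factors, were not called. Xbp1 overlapped at 438 to 506 and 398 to 524 CPM, and the log2 fold changes of Prdm1 and Irf4 were -0.86 ± 0.45 and -0.49 ± 0.44 (edgeR adjusted p = 0.351 and 0.600). Cd79b, a signalling chain of the B cell receptor, was at 42.4 to 46.9 CPM in WT and 36.5 to 63.4 CPM in ACKR2-/- samples, and Cd79a had a log2 fold change of 0.94 ± 0.53 (edgeR adjusted p = 0.380). The summed B cell markers overlapped, at 48.6 to 52.2 and 41.1 to 84.8 CPM, with 0 of 4 tested genes called.

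The lists of early B cells also overlapped in monocytes. The surrogate light chain genes ranged from 1.99 to 2.80 CPM in WT and from 0.637 to 11.5 CPM in ACKR2-/- monocytes, in which Vpreb3 was at 4.20 and 7.17 CPM in replicates 1 and 2 and at 0.158 and 0.106 CPM in replicates 3 and 4. The recombination genes Rag1, Rag2 and Dntt together ranged from 0.392 to 1.24 and from 0.789 to 5.22 CPM. None of the tested genes of these lists (Vpreb1, Vpreb3 and Dntt) was called.

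In SPMs, the summed levels of the same loci did not differ between the genotypes beyond the spread of the samples. Of 107 members tested, 0 were called higher and 0 lower by edgeR, where 0.0308% and 0.0154% of 12997 genes were called. DESeq2 called 0 members as well, and at an unadjusted p under 0.05 there were 0 higher and 1 lower. The median log2 fold change of the tested members was 0.04, beside -0.05 over all genes. Of 239 members with 10 or more counts in the SPM table, 4 were higher in every ACKR2-/- sample and 1, Trbv3, was lower in every one, where the shares over all genes were 1.64% and 1.46%.

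The heavy locus was at 290 ± 119 CPM in WT and 313 ± 69.7 CPM in ACKR2-/- SPMs, kappa at 695 ± 338 and 649 ± 96.6 CPM, and lambda at 459 ± 312 and 361 ± 84.7 CPM. WT replicate 1, the library with the high monocyte markers, was the lowest of all SPM samples in these loci, and without it the WT means were 342, 844 and 566 CPM. The beta locus was at 52.7 ± 13.4 and 47.7 ± 2.49 CPM and the alpha locus at 12.9 ± 4.12 and 12.5 ± 2.39 CPM. Trac was at 4.65, 12.7, 12.2 and 10.1 CPM in WT and at 12.95, 8.40, 8.66 and 9.16 CPM in ACKR2-/- SPMs, so WT SPMs held more Trac than WT monocytes in every sample.

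The same 2 segments led nearly all SPM samples. Ighv11-2 was the leading heavy V segment in all 8 SPM samples, with 23, 137, 74 and 142 counts in WT and 127, 150, 215 and 190 counts in ACKR2-/- samples, or 22.2% to 30.6% of the heavy V counts. Igkv14-126 led the kappa V counts in 7 of 8 samples, at 15.2% to 35.9%, with 295, 703, 1191 and 1050 counts in WT and 895, 1043, 1455 and 750 counts in ACKR2-/- samples. In the remaining sample, WT replicate 2, Igkv4-91 led with 720 counts, and it was second in the other 7. Ighv12-3 led no sample and was second in 3. In ACKR2-/- monocytes Ighv11-2 also led in replicate 2, with 160 counts, and Igkv14-126 in replicates 1 and 2, with 437 and 805 counts. In the lung, no sample had Ighv11-2 or Igkv14-126 as the leading segment of its locus. Cell types were counted in separate tables, so cell type and table cannot be told apart.

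Per kb of gene length, Igkv14-126 was at 135 ± 109 CPM per kb in WT and 90.9 ± 23.5 in ACKR2-/- SPMs, and Igkv4-91 at 66.9 ± 36.4 and 44.4 ± 12.4. Ighv11-2 was at 10.8 ± 5.85 and 11.4 ± 0.698 CPM per kb and Ighv12-3 at 5.24 ± 4.28 and 2.97 ± 1.34. The lambda V segments Iglv1 (110 ± 72.5 and 88.3 ± 34.2) and Iglv2 (96.9 ± 67.3 and 84.4 ± 26.3) were at levels like that of Igkv14-126 within their spread. Lambda took 35.1% to 48.4% of the light chain constant counts of SPM samples, against 3.01% to 54.8% in monocytes and 24.2% to 45.6% in the lung. Igha took only 0.202% to 0.664% of the heavy chain constant counts of SPMs and Ighm 94.2% to 97.1%.

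In lung interstitial macrophages no member was called by edgeR, with 0 higher and 0 lower of 128 tested. Of 16824 genes tested in all, 0% were called higher and 0% lower, while 499 had an unadjusted p under 0.05. Among the members 2 were higher and 11 lower at that level, and DESeq2 called 0 members. The median log2 fold change of the tested members was -0.91, beside -0.04 over all genes. Without WT replicate 3 the median was 0.15 over 133 tested members, so its sign rested on that library, while it stayed between -1.16 and -0.66 without any other 1 sample. Of 283 members with 10 or more counts in the lung table, 2 (0.707%) were higher and 5 (1.77%) lower in every ACKR2-/- sample. The shares over all genes were 0.212% and 0.229%.

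The immunoglobulin loci of the lung were dominated by 1 library. The heavy locus was at 1039, 548, 3178, 513 and 531 CPM in WT and at 883, 649, 634, 495 and 769 CPM in ACKR2-/- samples. Without WT replicate 3, the WT mean was 658 CPM in place of 1162 CPM, beside 686 ± 147 CPM in ACKR2-/- samples. The kappa locus was at 738, 405, 2709, 203 and 196 CPM in WT and at 674, 456, 379, 57.5 and 660 CPM in ACKR2-/- samples. Its WT mean was 850 CPM with and 385 CPM without replicate 3, beside 445 CPM in ACKR2-/- samples. For lambda it was 253 CPM with and 132 CPM without, beside 167 CPM. The means of all 3 loci were thus lower in ACKR2-/- samples with replicate 3 and higher without it. The part of the MHC class II and B cell markers of this library in these values was not tested. The beta locus was at 68.2 ± 27.6 CPM in WT and 118 ± 55.6 CPM in ACKR2-/- samples, and the groups overlapped. The lowest samples of the genotypes were ACKR2-/- replicate 4 at 25.8 CPM and WT replicate 5 at 34.0 CPM, the same libraries that were low in the lung epithelium markers, whose part in these values was not tested. Without WT replicate 5, which lacked Ackr2 reads, the WT mean of the beta locus was 76.7 CPM.

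Igha was uneven in the lung, at 2.17, 3.36, 468, 1.37 and 0.504 CPM in WT and at 205, 59.0, 0.774, 0.0402 and 206 CPM in ACKR2-/- samples. In WT only replicate 3 was high, and without it the WT samples had 0.504 to 3.36 CPM. The ACKR2-/- samples held both high values (59.0 to 206 CPM) and low ones (0.774 and 0.0402 CPM). Ighd took 7.20% to 15.3% of the heavy chain constant counts in WT, or at most 10.3% without replicate 3, and 1.78% to 10.6% in ACKR2-/- lung samples. The delta V segments were more abundant per kb here than in the other cell types, with Trdv4 at 4.03 ± 1.96 CPM per kb in WT and 7.76 ± 4.46 in ACKR2-/-, and Trdv2-2 at 2.75 ± 1.33 and 7.73 ± 5.26. The summed T cell markers of the lung ranged from 116 to 333 CPM in WT and from 91.3 to 566 CPM in ACKR2-/- samples, and the natural killer cell markers from 153 to 347 and from 310 to 1916 CPM. Their part in the values of these loci was not tested.

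The difference of the genotype effects between cell types was tested in 1 fit of all 26 samples over 17792 genes, of which 164 were members. The effect in monocytes exceeded that in SPMs for 7 members, where 0.225% of all genes were called in that direction, and was smaller for 0, where 0.0281% were. The 7 were Trbc1, Trbc2, Trac, Trdc, Trbv3, Igkv14-126 and Igkv8-27. The calls of Trdc and Trbv3 were lost in 17 and 16 of 20 other settings, among them the replicate block and the fit with no filter on low counts (highest edgeR adjusted p = 0.131 and 0.195), and the other 5 calls were lost in none. The largest of the constant genes was Trbc2, with a difference of 5.02 ± 0.66 (SE) on the log2 scale. Against the lung the effect in monocytes was larger for 10 members (0.146% of all genes) and smaller for 0 (0.00562%). The 10 were Trbc1, Trbc2, Trac, Ighv11-2, Ighv3-6, Ighv1-55, Igkv14-126, Igkv8-27, Igkv14-111 and Igkv12-44. Called members with few or no counts in WT monocytes could hardly show a smaller effect there. The splits of 7 to 0 and 10 to 0 therefore support no direction. Of 22 other settings, the calls of Ighv1-55 and Igkv14-111 were lost in 16 each, Ighv3-6 in 10, Ighv11-2 in 5, Trac in 2 and Trbc1 and Igkv12-44 in 1 each, and those of Trbc2, Igkv14-126 and Igkv8-27 in none. Trbc1, Trbc2 and Trac differed from the lung by 3.34 ± 0.56, 4.37 ± 0.63 and 3.64 ± 0.65 on the log2 scale. With only the samples of monocytes and lung in the fit, Trbc1 and Trac no longer passed (highest edgeR adjusted p over the settings 0.0714 and 0.0826). Between SPMs and lung macrophages 0 members differed in either direction, where 0.0169% of all genes had a larger and 0.0225% a smaller effect in SPMs.

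The V segments of the alpha locus differed between the genotypes in another way, which held in all 3 cell types. The 50 alpha V members lie in order along chromosome 14, and they were divided into 3 stretches by the genotype with more counts, where ACKR2-/- samples had 1127 alpha V counts in all and WT samples 587. The bounds of the stretches were set after the counts had been seen, so what follows is a description with no test. In the first stretch, 17 segments from Trav1 to Trav13d-1 (chr14:52427928-52851866), WT samples had 69 counts and ACKR2-/- samples 841. In the second, 26 segments from Trav8d-2 to Trav6-7-dv9 (chr14:53042428-53710419), WT samples had 430 counts and ACKR2-/- samples 33. Of these 26 segments 3 had more counts in ACKR2-/- samples, Trav9n-3 (1 in WT and 9 in ACKR2-/-), Trav7-3 (5 and 8) and Trav14n-1 (5 and 7). In the third, 7 segments from Trav7-6 to Trav21-dv12 (chr14:53716716-53876752), it was 88 and 253.

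The share of a sample's alpha V counts that lay on the second stretch separated the genotypes in every cell type. It was 50.0% to 66.7% in WT and 0% to 5.26% in ACKR2-/- monocytes, where the WT samples had only 4 to 6 such counts each. In SPMs it was 90.5%, 84.9%, 69.1% and 66.7% in WT and 12.7%, 6.45%, 2.53% and 4.88% in ACKR2-/- samples. In the lung it was 71.7%, 66.1%, 82.5%, 68.0% and 87.9% in WT and 0%, 3.89%, 3.09%, 0% and 0% in ACKR2-/- samples. Lung WT replicate 5, which had no Ackr2 read, was on the side of the WT samples by this measure. Its counts were among those seen when the bounds were set, so this is no independent check of its label. The first stretch held 0% to 21.4% in WT and 31.8% to 86.1% in ACKR2-/- samples. The share of the third stretch overlapped between the genotypes in every cell type, at 0% to 15.8% in WT and 12.9% to 32.9% in ACKR2-/- samples of SPMs and at 12.1% to 18.8% and 13.9% to 33.0% in the lung.

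Single segments showed the same division. Trav7d-4 had 1 count over 13 WT samples and 164 counts over 13 ACKR2-/- samples, 11 of which had a count. Trav7d-3 had 1 and 83 counts, with a count in 1 WT sample and in all 13 ACKR2-/- samples. Trav12-2 had 39 counts in WT, spread over 8 samples, and 0 in ACKR2-/- samples. Trav14n-3 had 23 counts in 10 WT samples and 0 in ACKR2-/- samples. Over the 3 Trav12 members together it was 62 and 0, while over the 8 Trav7 members it was 83 and 348, so the families were not all lost or gained together. Trav7-4, whose sequence differs from that of Trav7d-4 at 1 base, had 29 counts in WT and 1 in ACKR2-/- samples, so the near copies took their counts in opposite genotypes. Trav12-2 was only 93.6% identical to its nearest member, Trav12-1. How reads that match several copies were counted is not given for every table, and genotype and source of the mice cannot be told apart.

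By the rule used here, such a division was met almost only in the alpha locus. Counting genes with 10 or more counts in 1 genotype and at most 1 in the other, a rule set after the values had been seen, 10 members (3.01%) were found in ACKR2-/- samples only, where the share over all genes was 0.57%. In WT samples only there were 21 (6.33%), where the share over all genes was 0.778%. Of these 31 members, 27 were alpha V segments, 20 of them in WT and 7 in ACKR2-/- samples. The others were 2 alpha J segments and Tcrg-C3 in ACKR2-/- samples and Igkv3-3 in WT samples. No heavy, lambda, beta or delta member met the rule. Members with many counts fail it with only a few reads in the other genotype, so it does not show that these loci lack a division. The first group includes Tcrg-C3, with 0 counts in WT and 10 in ACKR2-/- samples, a gene that is 96.7% identical to Tcrg-C1.

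**Figure D5:**
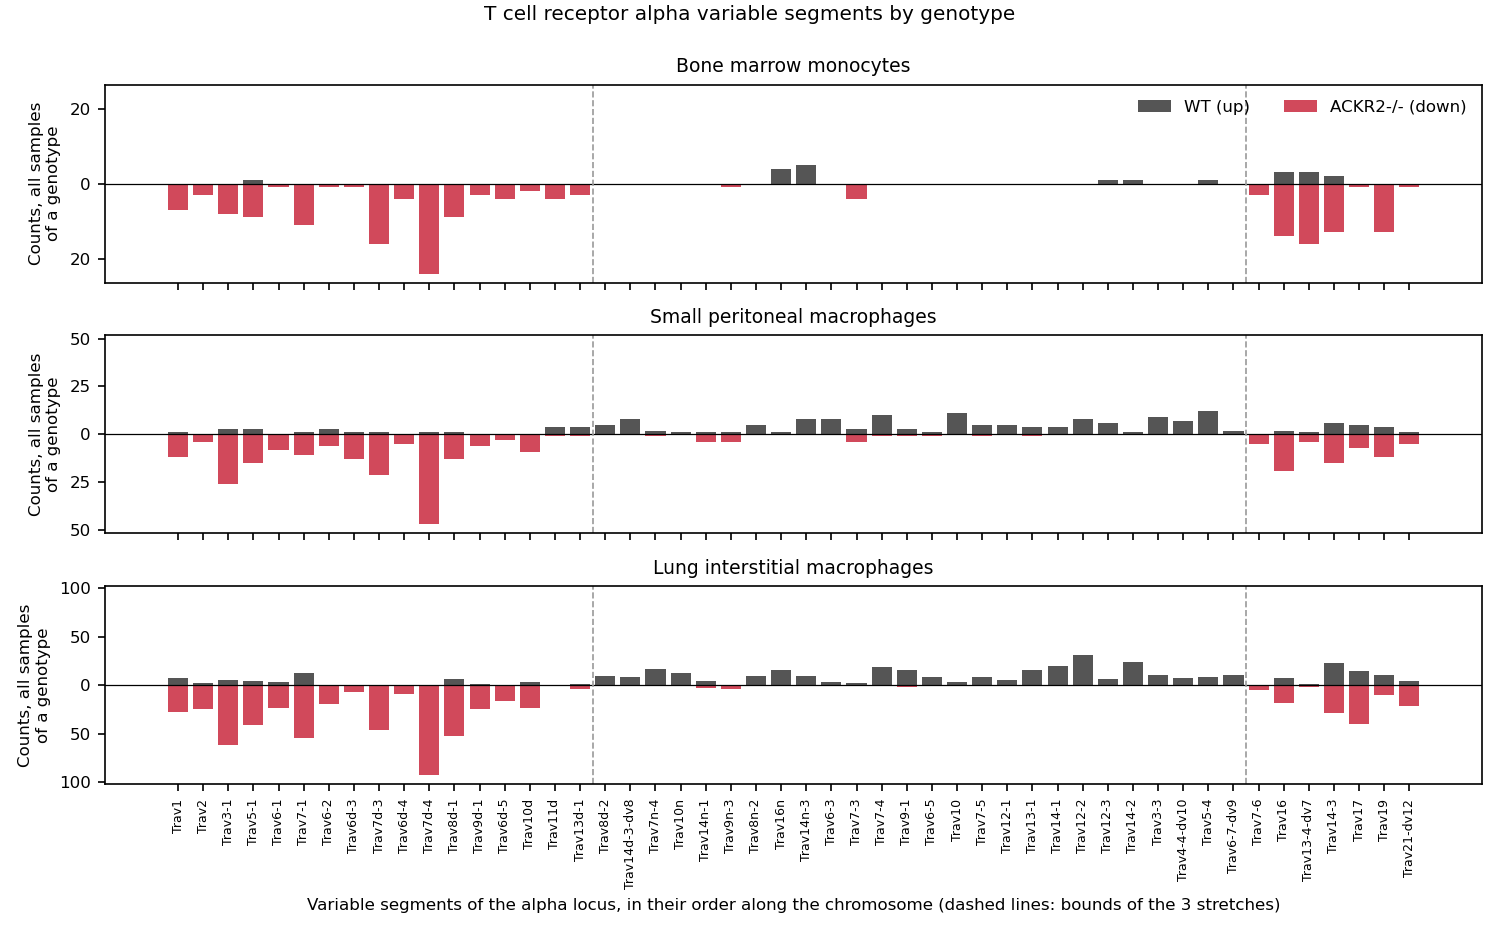
Counts of the 50 alpha V members in their order along the chromosome, summed over the WT samples (grey, upward) and the ACKR2-/- samples (red, downward) of each cell type, with dashed lines at the bounds of the 3 stretches. The middle stretch holds mostly WT counts in all 3 panels (430 against 33 in all), and the stretches on both sides hold mostly ACKR2-/- counts (841 against 69 and 253 against 88).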

How the data were processed

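RNA was sequenced from 26 samples. Per the methods, cDNA was made with a SMARTer kit from poly-A RNA, and the submitters' processing notes name HISAT2 2.0.5, featureCounts 1.5.0-p3, DESeq2 and mm10, with no role given for each table. The values are raw read counts per gene as deposited by the authors, in 1 table per cell type. How the lung table was counted is not stated: 56.3% of its counts lay on 5 summary lines and were left out, and 5306 of its identifiers are not in GENCODE M21. Use of strand is not stated, so a gene and its antisense partner cannot be told apart. The coordinates of all 332 members equal GENCODE M21.

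Counts were fitted per cell type with edgeR 4.0.16 in R 4.3.3 (TMM factors, filterByExpr with a minimum count of 10 and a minimum total of 15, quasi-likelihood test, Benjamini-Hochberg adjustment over all genes tested). The thresholds were 0.05 for the adjusted p and 0.5 for the size of the log2 fold change. The genotype effects were compared in 1 fit of all 26 samples. CPM are counts per 1000000 of the TMM-scaled library, ± is the SD over samples or the SE of a fitted fold change, and intervals are exact binomial at 95%. The scripts were tested on simulated data. DESeq2 1.42.0 was an alternative, beside RLE factors, other filters, a robust fit, leaving out samples and a replicate block. No 2 samples were alike within sampling noise. Lung samples may be single or pooled mice, and p-values measure the spread between these samples only.

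The members, the partner and marker lists and the tests were chosen with earlier results of these data known. Named genes were the constant members, members called in any comparison, the 2 segments per locus and cell type with the highest CPM per kb, and genes of the partner and marker lists. Segments that led a locus, Trbv1, Trbv3 and the alpha V segments were named after their values were seen. No promoter of a member was in the promoter table used, so promoter motifs were not searched. Part of the sort gates and 1 gene of the partner lists are not reported here.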

Additional observations from a re-analysis of the deposited data

Results flagged for a closer look

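Of 116 groups of a locus sum or constant gene with at least 100 counts, 17 held a sample whose gap to its nearest neighbour was large for the range of the group (Dixon's 95% value), where chance gives about 1 in 20. Of these, 12 were WT lung replicate 3. It was at 3178 CPM for the heavy locus (other WT samples 513 to 1039), 2709 for kappa (196 to 738) and 738 for lambda (85.1 to 250). Among its constant genes it was at 468 CPM for Igha (others 0.504 to 3.36), 1912 for Ighm (447 to 849), 434 for Ighd (35.4 to 97.8), 1846 for Igkc (135 to 499.5), 299 for Iglc2 (30.6 to 89.2), 224 for Iglc3 (20.2 to 57.4), 12.9 for Ighg2b (at most 0.0944), 7.34 for Ighg2c (at most 0.770) and 4.29 for Ighg3 (at most 0.567). The T cell receptor loci of that library were not set apart.

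WT monocyte replicate 1 was at 723 CPM for the heavy locus (others 629 to 637) and at 689 CPM for Ighm (593 to 607). ACKR2-/- SPM replicate 2 was at 487 CPM for lambda (301 to 329), and replicate 1 at 16.1 CPM for the alpha locus (11.1 to 11.9) and 12.95 CPM for Trac (8.40 to 9.16).

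The genotype effect differed between cell types by the interaction test for the following members, given as the log2 effect in monocytes minus that in the other cell type. Against SPMs it was 8.52 for Igkv8-27, 8.16 for Igkv14-126, 6.10 for Trbv3, 5.02 for Trbc2, 4.59 for Trbc1, 4.26 for Trdc and 4.10 for Trac. Against lung macrophages it was 11.83 for Igkv12-44, 11.20 for Ighv11-2, 10.36 for Igkv8-27, 9.31 for Ighv3-6, 8.90 for Igkv14-126, 8.39 for Igkv14-111, 7.56 for Ighv1-55, 4.37 for Trbc2, 3.64 for Trac and 3.34 for Trbc1. Igkv12-44, Ighv11-2 and Trbv3 had no count in WT monocytes, Ighv3-6, Igkv8-27 and Igkv14-111 had 1 and Ighv1-55 had 2. The fitted sizes of all these members therefore depend on the prior count of the fit and are no bounds.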

How the results depend on the processing

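In monocytes 15 members were called higher. Without a filter on low counts it was 47, with 2 called lower (Igkv4-68 and Igkv4-55, each counted in 1 WT library), and leaving out 1 sample gave 9 to 17, with 9 without WT replicate 2 and 9 without WT replicate 4. The effect in monocytes was larger than in SPMs for 7 members, or 16 when only both cell types entered the fit, and larger than in the lung for 10 members, or 3 in such a fit, with 5 to 15 when 1 sample was left out (5 to 6 without any 1 WT monocyte replicate). Trbc1, Trbc2, Trac, Trdc, Tcrg-C2, Igha, Ighv1-55 and Igkv14-126 passed in all 16 alternatives of the monocyte comparison, while Igkc was lost in 6, Iglc3 in 5, Ighv11-2 in 4 and Trbv12-2 in 7. The log2 fold change of Iglc1 turned from -1.44 to 0.30 without WT replicate 2 and that of Xbp1 from -0.07 to 0.00 without ACKR2-/- replicate 2, in ranges of -1.84 to 0.30 and -0.13 to 0.00 over the fits without 1 sample. The cause of these changes was not tested. All locus means moved by less than 1 SD of their group. Leaving out 1 sample cannot move a mean by more than that, so this says nothing about single libraries. Without WT replicate 3 the lung WT mean went from 1162 to 658 CPM for heavy and from 850 to 385 CPM for kappa. In both loci it then lay below the ACKR2-/- mean.

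The median number of V segments with at least 1 and at least 10 counts was 53.0 and 11.0 in WT and 107 and 36.5 in ACKR2-/- monocytes, 197.5 and 69.5 in WT and 209 and 103 in ACKR2-/- SPMs, 201 and 112 in WT lung samples, and 109 at 10 counts in ACKR2-/- lung samples, so this number depends on the minimum.

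The replicate numbers did not pair the samples, since the correlations of same-numbered samples lay between -0.118 and 0.307 in monocytes, -0.0918 and 0.0246 in SPMs and -0.0779 and 0.643 in the lung, and only monocyte pair 2 and lung pair 1 correlated best with their own number. With a replicate block 15 members were called higher in monocytes, 14 of them shared (Trbv12-2 lost, Igkv5-39 gained). The interaction with SPMs gave 8, of which 5 were shared (Trdc and Trbv3 lost), and that with the lung 10, of which 7 were shared (Ighv1-55, Ighv3-6 and Igkv14-111 lost), and both gained Ighv1-39, Ighv1-9 and Igkv19-93. Promoter motifs were not run.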
